A study of Mus musculus with 7 samples.

Results

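The genes described here are 43 genes of DNA replication, taken by name from the 27998 genes in the count tables: the helicase that opens the double helix, the proteins that license origins, the sliding clamp and its loader, the polymerases and primase, the proteins that bind, trim and join single strands, the enzymes that supply nucleotides, the factors that restore chromatin behind the fork, the E2F factors and E cyclins, and 2 genes of the fork checkpoint. The rule names the genes and uses no measured value, and the set was chosen with earlier results of these data known. All 43 genes were found in the tables and all had at least 1 UMI in every library. They were followed in 7 single-cell RNA libraries of activated (CD44high) T cells of the spleen, taken from mice of strain C57bl/6 after infection with LCMV Arm, the Armstrong strain of a mouse virus that is cleared acutely. Wild type mice gave 2 total libraries at day 7, in which CD4+ and CD8+ T cells had been sorted apart and mixed in equal parts, and 1 library of CD4+ T cells that bind GP66:I-Ab, a tetramer that marks T cells specific for one viral peptide. A further pair of GP66:I-Ab+ libraries at day 7 and a second pair at day 30 were sorted for RosaYFP, with no gate on CD4 named, from Ox40-Cre+ Thpokwt/wt RosaYFP+ mice (Thpok-sufficient) and Ox40-Cre+ Thpokfl/fl RosaYFP+ mice (Thpok-deleted). Thpok is the factor, encoded by Zbtb7b, that holds T cells in the CD4 lineage. Ox40-Cre acts in T cells after activation, so that both arms of each pair carry the Cre and the YFP reporter and differ in the Thpok allele. Sex, age and the number of mice behind a library are not given in the labels used here.

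DNA is copied once per cell cycle, in S phase. In G1 Cdc6 and Cdt1 load the ring of Mcm2 to Mcm7 onto origins, with geminin (Gmnn) blocking a second loading, and Cdc45 and the GINS proteins turn that ring into the working helicase. Primase and polymerase alpha start each strand, the clamp Pcna, loaded by replication factor C, holds polymerases delta and epsilon on the template, and Rpa2, Fen1 and Lig1 cover, trim and join the pieces. Many of these genes are transcribed in waves driven by the E2F factors, which Cyclin E-Cdk2 helps to release at the G1 to S boundary. Activated T cells divide rapidly during acute infection and memory T cells are mostly at rest, which makes these genes a common readout of cycling in T cells.

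A level is given below as CPM: the UMIs (tagged single molecules) of a gene, summed over the cells of a library or class, per 1000000 UMIs of those cells. The libraries kept between 725 and 6845 cells, 16114 in all, with median depths from 2017 to 5900 UMIs per cell, and the day 30 libraries were the shallow ones, at 2017 and 2440 UMIs. B-like and myeloid-like clusters were left out, which kept 15897 cells, called T cells here. Among them stayed 88 cells of the total libraries in an NK-like cluster led by Klra7, Klra1 and Klre1, of which 53 and 22 in replicates 1 and 2 were CD8-like and none was CD4-like. They held 0.417% and 0.331% of the CD8-like UMIs of the replication genes in these libraries. A T cell was called CD4-like where Cd4 was detected and neither Cd8a nor Cd8b1 was, and CD8-like in the reverse case. The T cell gene Cd3e stood at 256 to 426 CPM in the 7 libraries. Zbtb7b checked the labels: it stood between 20.6 and 31.3 CPM in the 5 Thpok-intact libraries and at 1 UMI in each Thpok-deleted library. A pair of libraries shared at most 25 cell barcodes. In Thpok-sufficient cells at day 30, 1 cell of 27995 UMIs held 206 of the 1170 UMIs of the replication genes (17.6%), and the main summed levels and counts of calls that rest on that library are given with and without it, while other values of day 30 include it unless stated. In total replicate 1 and Thpok-deleted day 30, 3 and 2 cells had 10% or more of their UMIs from hemoglobin and other erythroid genes, and results that change without them are given beside the result. As in any pool of cells, fewer cells in S phase and less of each RNA per cell cannot be told apart in the summed levels, so a description per cell follows them.

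Promoter sequences of these genes were searched for known words, and 3 are printed because they hold the words counted here and lie wholly before the annotated gene. RefSeq windows on GRCm38.p6, from 250 bases before to 50 bases after a transcription start, were found for 35 of the 43 genes and searched on both strands for the E2F words TTTCCCGC, TTTCGCGC, TTTGCCGC and TTTGGCGC, for CCAAT, and for TTTGAA, the core of the CHR element known from mitosis genes. An E2F word was found in 15 of the 35 genes (42.9%), against 2.60% of 27025 genes with a window of that length and 1 of 22 genes of a mitosis list (4.55%). CCAAT stood in 54.3% of the replication genes, 41.1% of all genes and 86.4% of the mitosis list, and TTTGAA in 14.3%, 20.2% and 72.7%. A match is a description of letters, not a site shown to be bound. Capitals below mark E2F words and CCAAT on either strand, and position 0 is the first transcribed base. Before Mcm6, a helicase subunit, 2 overlapping E2F words begin at -110 and -106 and another at -47 (chr1:128359706-128359955, minus strand). Before Mcm5, another subunit, 2 overlapping words begin at -153 and -149 (chr8:75109259-75109508, plus strand). Slbp, the histone messenger binding protein, has CCAAT 3 times and no E2F word (chr5:33652575-33652824, minus strand).
Mcm6: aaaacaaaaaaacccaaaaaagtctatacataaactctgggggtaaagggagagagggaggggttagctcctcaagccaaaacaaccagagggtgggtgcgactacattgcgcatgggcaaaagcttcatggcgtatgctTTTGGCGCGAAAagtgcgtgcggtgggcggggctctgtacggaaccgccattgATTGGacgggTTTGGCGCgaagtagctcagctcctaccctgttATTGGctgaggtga
Mcm5: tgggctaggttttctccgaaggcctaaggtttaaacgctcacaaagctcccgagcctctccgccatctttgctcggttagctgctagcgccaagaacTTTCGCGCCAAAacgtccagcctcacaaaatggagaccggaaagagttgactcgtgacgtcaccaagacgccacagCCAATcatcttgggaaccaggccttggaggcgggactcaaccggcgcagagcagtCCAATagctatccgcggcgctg
Slbp: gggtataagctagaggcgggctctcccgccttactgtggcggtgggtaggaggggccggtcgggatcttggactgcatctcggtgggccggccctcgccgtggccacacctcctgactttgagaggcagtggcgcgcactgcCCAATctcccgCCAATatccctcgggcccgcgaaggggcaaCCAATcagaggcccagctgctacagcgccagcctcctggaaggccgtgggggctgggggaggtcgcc
The words were spread unevenly over the roles. They were found in 4 of 6 matched helicase genes and in both matched licensing genes, Cdc6 (at -138) and Cdt1 (at 32), and in none of the 6 genes of nucleotide supply. The 22 words of the 15 genes lay between -219 and 39, with a median position of -28.5, and an E2F word overlapped a CCAAT in 1 of 43 windows. The RefSeq stretches before the starts of Pcna and Dut, chosen by the same rule, lie partly or wholly inside the longer GENCODE gene, hold no E2F word and are not printed.

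The summed level of the 43 genes was 1749.9 CPM (exact Poisson 95% interval 1719 to 1781) in CD4-like cells of total replicate 1 and 2128 in replicate 2. CD8-like cells of the same libraries held 2559 and 3725. The GP66+ libraries of day 7 held 2351 in wild type, 2075 in Thpok-sufficient and 4274 in Thpok-deleted cells, and those of day 30 held 755 in Thpok-sufficient and 1517 in Thpok-deleted cells. Deleted cells of day 7 thus stood highest of these profiles and sufficient cells of day 30 lowest. The intervals cover counting error only, and by them CD4-like cells of total replicate 2 and Thpok-sufficient cells of day 7 (2049.6 to 2100.3) were neighbours whose intervals overlapped. Without the 1 cell noted above, Thpok-sufficient day 30 fell to 633. Droplets with 1 to 100 UMIs, which hold free RNA and no cell, carried the same genes at 815 to 5151 CPM, lowest in the Thpok-sufficient library of day 30 and highest in the Thpok-deleted library of day 7, and the part of free RNA in the cells' values was not tested.

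**Figure D1:**
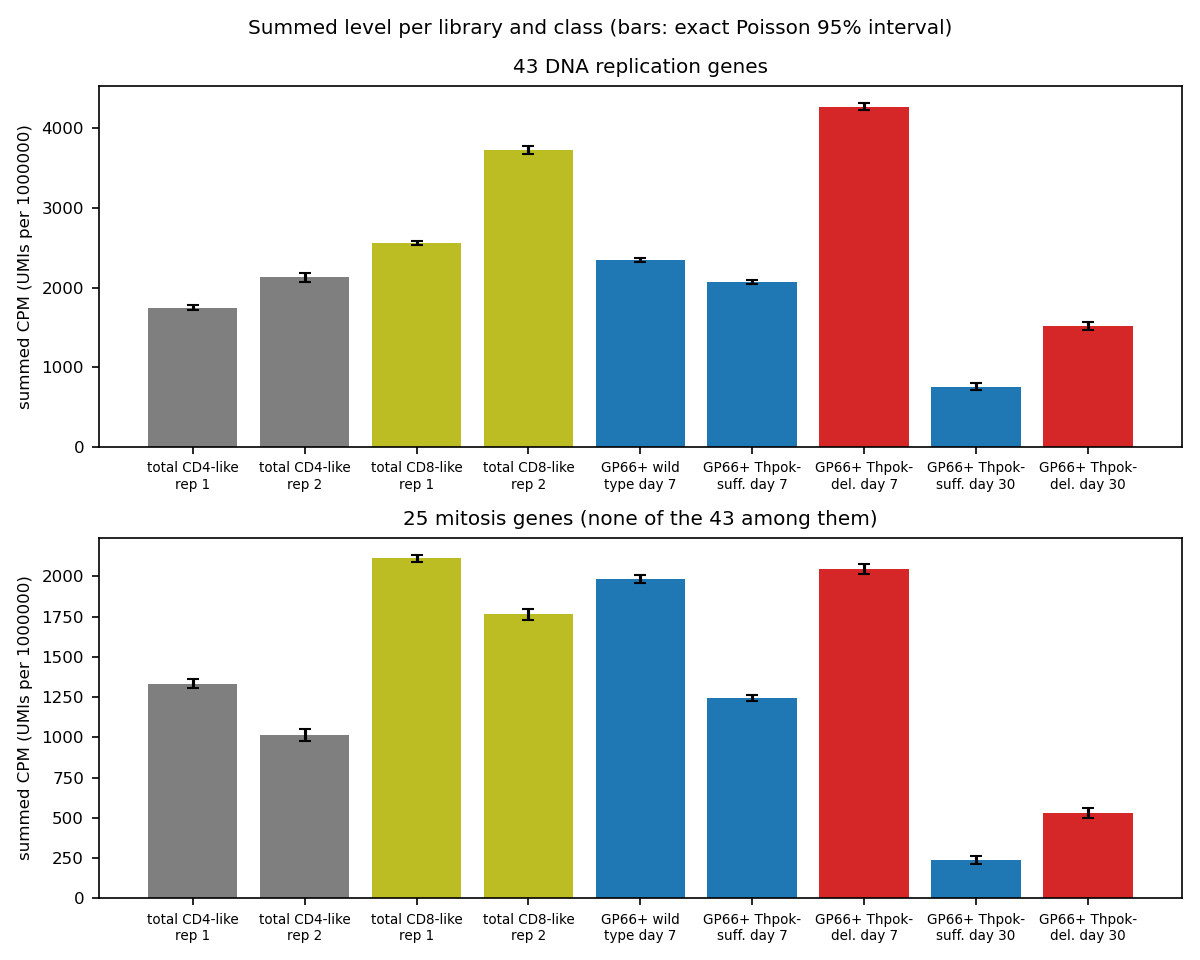
Summed CPM (vertical axes, from 0) of the 43 replication genes (top) and of 25 mitosis genes (bottom) in CD4-like and CD8-like cells of the 2 total libraries and in all T cells of the 5 GP66+ libraries, 1 bar per profile, with exact Poisson 95% intervals. The replication genes stood at 4274 in Thpok-deleted cells of day 7 and at 755 in Thpok-sufficient cells of day 30.

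The first comparison asked how CD8-like and CD4-like cells of the same infection differ. Replication genes were higher in CD8-like cells: the summed level was 1.46 times that of CD4-like cells in replicate 1 and 1.75 times in replicate 2. By edgeR's quasi-likelihood test on the summed UMIs, with the library as a block and Benjamini-Hochberg adjustment over all genes at 0.05, 40 of the 43 genes rose in CD8-like cells and none was lower. Of all 10201 genes tested, 18.8% were higher and 19.5% lower by that rule. The median log2 fold change of the 43 genes was 0.73 and that of all genes -0.019. For 42 genes the CD8-like value was above the CD4-like value in both libraries (29% of all genes tested), and Ung, lower in replicate 1, was the exception. For 31 genes both CD8-like values lay above both CD4-like values (19.4% of all genes). NK cell markers summed to 17.8 and 8.88 CPM in CD4-like and 164.5 and 123 in CD8-like cells of replicates 1 and 2, and the 3 of them that were tested rose in CD8-like cells (Klre1 by 5.27 ± 0.17, Eomes by 2.90 ± 0.15 and Klrb1c by 0.72 ± 0.26 on the log2 scale). Without the NK-like cluster the summed level of the replication genes in CD8-like cells was 2573 and 3771 CPM in replicates 1 and 2. The part of other cells with these markers in the result was not tested.

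Licensing genes stood at the top of this difference. Cdc6 had 6.39 and 9.54 CPM in CD4-like cells of replicates 1 and 2 and 11.7 and 31.7 in CD8-like cells. Both CD8-like values lay above both CD4-like values, a log2 fold change of 1.35 ± 0.19 (edgeR adjusted p = 3.55e-10). Cdt1, its partner in loading the helicase, had 17.3 and 21.7 in CD4-like and 38.9 and 48.5 in CD8-like cells (1.25 ± 0.13). Gmnn, which restrains Cdt1, went the same way with 53.5 and 57.2 against 84.9 and 122 (0.93 ± 0.09). Thus the loader, its partner and its inhibitor were all higher in CD8-like cells without overlap. Among the strand binding genes Rpa2, the middle subunit of replication protein A, had 68.9 and 104 in CD4-like and 170.3 and 206 in CD8-like cells (1.24 ± 0.08, edgeR adjusted p = 7.90e-33). Its groups did not overlap either, and it had the lowest p of the 43 genes. Rrm2, the inducible subunit of the reductase that makes deoxyribonucleotides, had 103 and 119 against 184 and 265 (1.06 ± 0.08).

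Other roles rose by less, and for some genes the spread between the libraries was as wide as the difference. Mcm6 had 93.0 and 124 in CD4-like and 118 and 186 in CD8-like cells (0.54 ± 0.08): higher within each library, with the CD4-like value of replicate 2 above the CD8-like value of replicate 1. Pcna, the sliding clamp, had 99.99 and 149 against 159 and 246 (0.77 ± 0.08), and Prim1, the catalytic primase subunit, 23.2 and 23.4 against 33.0 and 49.6 (0.81 ± 0.13), both without overlap. All 5 genes of the clamp and its loader, all 6 chromatin genes, all 4 E2F and cyclin E genes and both checkpoint genes rose. The chromatin genes spanned log2 fold changes of 0.49 to 1.17, with Chaf1a, the large subunit of the assembly factor that brings histones to new DNA, at the top. Dut, which keeps uracil out of DNA by clearing dUTP, had 153 and 191 against 189.9 and 272 (0.48 ± 0.07), with an overlap across replicates. The 3 genes that did not pass were Gins1 (0.21 ± 0.13), Pola2 of the polymerase alpha complex (0.25 ± 0.16) and Ung, the uracil glycosylase (0.24 ± 0.15).

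The 2 total libraries differed from each other. In all T cells, 42 of the 43 genes were higher in replicate 2, with a median ratio of 1.35. E2f1 stood 4.85-fold higher there and Gins1 at 0.260 of its replicate 1 level. Both classes of a replicate moved together, which the block by library takes up: without it 17 of the 43 genes passed and none was lower (524 of all 10201 genes were higher). Without the NK-like cluster the count stayed at 40 (1802 of 10192). DESeq2 with the same block called 30 (752 of 10201). The residual degrees of freedom are 1, so the p-values rest on the spread shared across genes. Nothing in the labels says that libraries came from separate animals. The p-values of this comparison measure only how the difference between the classes varied between these 2 libraries. Those of the comparisons below measure only the spread between their libraries.

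**Figure D2:**
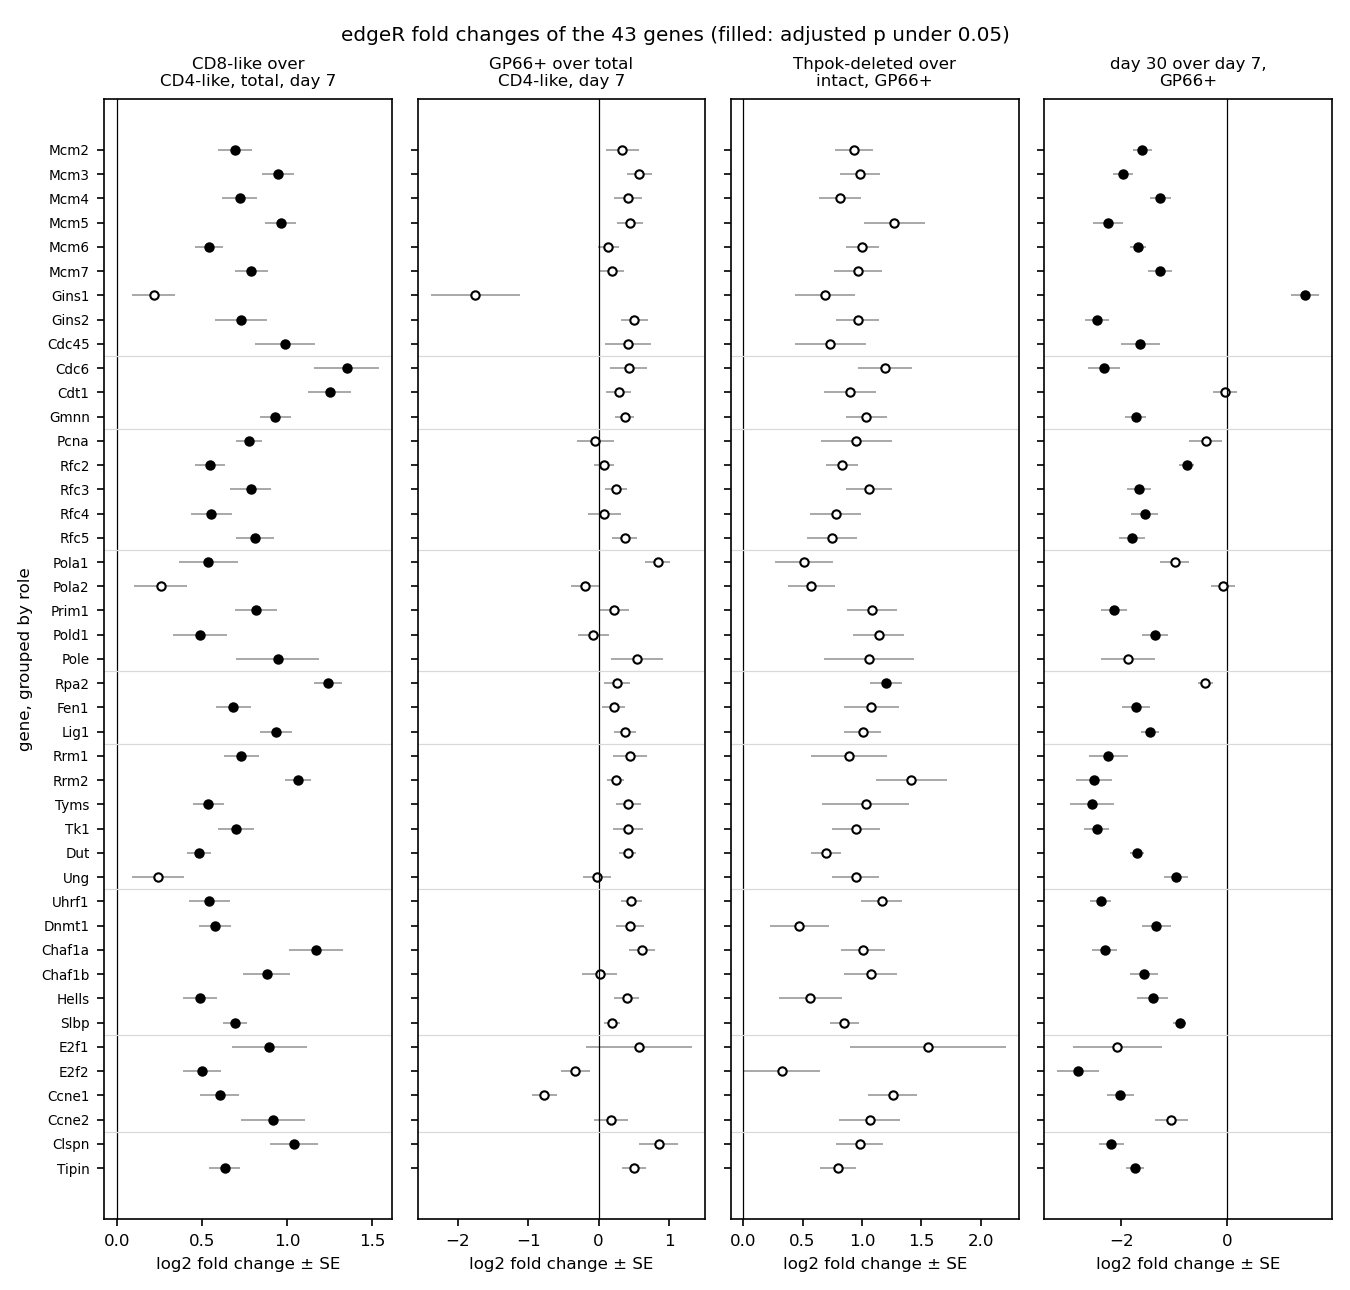
Log2 fold changes with standard errors (horizontal axes, each panel its own scale) of the 43 genes, grouped by role, from edgeR in 4 comparisons; filled circles have an adjusted p under 0.05. In CD8-like over CD4-like cells 40 circles are filled to the right, in day 30 over day 7 34 are filled to the left and Gins1 to the right, in Thpok-deleted over intact cells Rpa2 alone is filled, and in GP66+ over total CD4-like cells none is.

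The second comparison asked what loss of Thpok changes in GP66+ cells. By CPM over library totals, all 43 replication genes were higher in Thpok-deleted cells than in both intact libraries at day 7, and all 43 than in the Thpok-sufficient library at day 30. Of the 10793 genes tested 36.7% were higher at day 7, 65.8% at day 30 and 29.3% on both days. TMM scaling, which the fit below uses, changed the direction of some genes at day 30. Sufficient against deleted cells then had 27.7 against 24.3 for Hells, 32.9 against 30.8 for Dnmt1 and 13.5 against 12.1 for Pola1. Cdc45 (5.98 against 5.60) and Pole (2.99 against 2.80) were lower in deleted cells too. The summed level of the deleted cells was 2.06 times the Thpok-sufficient and 1.82 times the wild type level at day 7, and 2.01 times the Thpok-sufficient level at day 30, or 2.39 times without the 1 cell noted above. The 2 intact libraries of day 7 differed by 1.13 times. In an edgeR fit over the 5 libraries with day as a covariate, the median log2 fold change of the 43 genes was 0.97, against -0.0043 for all genes, and 37 had an unadjusted p under 0.05 (of all genes 8.78% were higher and 8.93% lower by that rule). After adjustment over all genes 1 of the 43, Rpa2, passed 0.05, where 0.602% of the genes tested were higher and 0.287% lower. With 2 residual degrees of freedom the count depended on the choice of test. DESeq2 called 18 (254 of all 10793 genes were higher) and the same edgeR fit without a filter on low counts 31 (417 of 15915). Leaving out the 1 cell noted above gave 2 (76 of 10786) and leaving out the erythroid cells 2 (79 of 10793). Leaving out the wild type library gave 21 (297 of 10104) and the Thpok-sufficient library of day 7 none (38 of 10169). Without either deleted library or the sufficient library of day 30, 1 library was left in a group. The median log2 fold changes were then 0.75 to 1.002. Without the deleted library of day 7, fitted values were still positive for 38 of the 43 genes.

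Rpa2 had 99.4 CPM in wild type, 96.0 in Thpok-sufficient and 207 in Thpok-deleted cells at day 7, and 55.5 and 166 in sufficient and deleted cells at day 30. The deleted value of day 30 lay above both intact values of day 7, and the log2 fold change was 1.20 ± 0.13 (edgeR adjusted p = 0.0402). Counted per cell at a depth of 1500 UMIs, 22.5% of Thpok-deleted cells and 6.65% of Thpok-sufficient cells had an Rpa2 UMI at day 30. Myeloid-like cells of the total libraries, set beside them as background, had 11.5% (median depths 2512, 2215 and 4486 UMIs). The sufficient share of day 30 stood below that, but so did the 10.6% of sufficient cells of day 7, and wild type cells had 12.1%. What part of these shares is background was not tested.

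Helicase genes had values of like size that did not pass the adjusted threshold. Mcm6 had 123 in wild type, 108 in sufficient and 212 in deleted cells at day 7, and 26.5 against 70.6 at day 30 (1.002 ± 0.14, edgeR adjusted p = 0.0552). Mcm5 had 78.6, 56.5 and 133 at day 7 and 7.74 against 35.5 at day 30 (1.27 ± 0.26, adjusted p by edgeR = 0.0947). In both, each deleted library lay above the intact libraries of its day. Rrm2 had 130.0, 119.6 and 245 at day 7 and 10.3 against 62.2 at day 30, the widest ratio of the 43 genes at day 30 (6.03). Its log2 fold change was 1.42 ± 0.30 (edgeR adjusted p = 0.105). Without the 1 cell noted above its ratio of day 30 was 11.8 and no longer the widest. E2f1, an activating E2F factor and itself a known E2F target, had 4.77 in wild type, 16.9 in sufficient and 35.6 in deleted cells at day 7, and 3.23 against 6.55 at day 30 (1.56 ± 0.66, edgeR adjusted p = 0.305). As a ratio, the 2 intact libraries of day 7 were further apart in E2f1 than the sufficient and the deleted library.

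Genes of the other roles went the same way without passing. Gmnn, the licensing inhibitor, had 76.4, 62.8 and 159 CPM in wild type, sufficient and deleted cells at day 7, and 20.6 against 38.3 in sufficient and deleted cells at day 30 (1.04 ± 0.17). Pcna had, in the same order, 92.2, 138 and 287, then 95.5 against 146 (0.95 ± 0.30). Sufficient cells of day 30 reached the Pcna level of wild type cells of day 7 only with the 1 cell noted above. Without it their Pcna level was 88.0. For Mcm6 and Mcm5 they stayed below the wild type level of day 7 with that cell included. Prim1 had 31.1, 21.3 and 53.4, then 4.52 against 12.2 (1.08 ± 0.21). Dut had 225, 212 and 372, then 58.7 against 101 (0.70 ± 0.12). For each of these genes deleted cells stood above the intact cells of the same day, on both days. Slbp, whose product handles the messengers of replication histones, had 199, 188 and 364, then 90.3 against 175 (0.85 ± 0.12), and Tipin, a partner of Timeless at the fork, 76.7, 81.9 and 142, then 20.6 against 38.8 (0.79 ± 0.15). E2f2, an E2F factor, stood apart at day 7: its level was 25.7 in wild type, 26.8 in sufficient and 27.9 in deleted cells, then 1.29 against 5.61 (0.32 ± 0.32), the latter from 2 and 12 UMIs. At day 7 its deleted to sufficient ratio of 1.04 was the lowest of the 43, whose median was 2.11 and whose highest was 3.25, for Pole, the catalytic subunit of polymerase epsilon. At day 30 the ratios ran from 1.02 (Hells, a chromatin remodeler) to 6.03, with a median of 1.94. Without the 1 cell noted above the median ratio of day 30 was 2.67, the lowest was 1.09 (Pola1), and all 43 genes were above 1. The highest was then 22.8 for Uhrf1, which had 1 UMI left in sufficient cells. That cell held 8 of the 16 UMIs of Rrm2 in sufficient cells of day 30, 13 of the 37 of Hells, and 22 of the 91 of Dut.

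**Figure D3:**
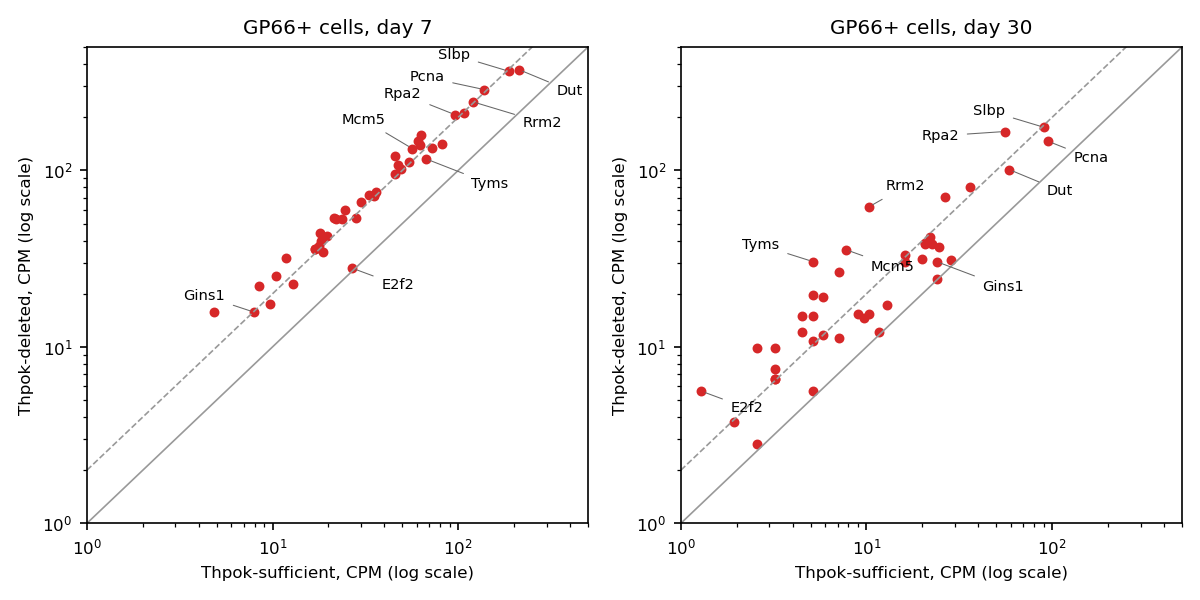
CPM of the 43 genes in Thpok-sufficient (horizontal, log scale) and Thpok-deleted (vertical, log scale) GP66+ cells at day 7 and day 30, 1 point per gene; the solid line marks equal levels and the dashed line a ratio of 2. All points lie above the solid line, from 1.04-fold (E2f2) to 3.25-fold (Pole) at day 7 and from 1.02-fold (Hells) to 6.03-fold (Rrm2) at day 30, where points of few UMIs scatter widely.

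Deleted cells also differed in kind. The summed level of 9 CD8 lineage genes was 1698 CPM in wild type, 1957 in sufficient and 15869 in deleted cells at day 7, and 243 of the 1318 deleted T cells were CD8-like against 49 of 2129 sufficient ones. Within CD4-like cells alone, the replication genes stood at 2401 in wild type, 2019 in sufficient and 4548 in deleted cells at day 7, and at 986 against 1683 at day 30. The deleted libraries thus remained the higher ones among cells with a Cd4 UMI and no Cd8 UMI. In that class at day 30 the 1 cell noted above held 40.9% of the sufficient library's UMIs of these genes, and without it that level was 617. The richest cell of the deleted library held 14.5% of the UMIs in that class, and without it the deleted level was 1498, which left a ratio of 2.43 with the richest cell of each library out. Erythroid genes summed to 6264 CPM in deleted cells of day 30 and to 1.94 in sufficient ones, nearly all of it in 2 cells that held 3 UMIs of the replication genes. B cell markers summed to 14.2, 6.12, 9.39, 7.74 and 53.8 in wild type, sufficient and deleted cells of day 7 and sufficient and deleted cells of day 30, and myeloid markers to between 89.7 and 208. NK cell markers, a list of 5 genes, summed to 4.49, 3.94, 62.0, 9.68 and 90.3 CPM in the same order. They were thus high in both deleted libraries, and most of that was Eomes, a factor shared by NK and CD8 T cells (5.08 ± 0.32, edgeR adjusted p = 0.0186). Klre1 was higher there too, with 0.281, 0.322, 6.90, 2.58 and 15.4 CPM in the same order. Klra8 was found only in the deleted libraries (0.452 and 0.935), and Klrb1c was lowest in deleted cells of day 7 (0.565). Ncr1 was at 0 in all 5 GP66+ libraries, and also in total replicate 2, where 25 cells of the NK-like cluster stayed. The part of these other genes' cells in the result was not tested.

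The third comparison asked how GP66+ cells of day 30, in the memory phase, differ from effector cells of day 7. Replication genes were lower at day 30 in both genotypes: the summed level at day 7 was 2.75 (sufficient) and 3.11 (wild type) times that of sufficient cells at day 30, or 3.28 and 3.71 times without the 1 cell noted above, and the day 7 level was 2.82 times that of day 30 in deleted cells. By the day term of the same edgeR fit 34 of the 43 genes fell (11.9% of the genes tested did) and Gins1 rose (9.93% did), with a median log2 fold change of -1.69 against 0.026 for all genes. In 39 genes day 30 lay below day 7 in each genotype (41% of all genes), and in 35 both values of day 30 lay below all 3 values of day 7 (32.8%). The count was 35 without the 1 cell noted above (1309 of all 10786 genes fell) and 34 by DESeq2 (1139 of 10793). It was 15 when cells needed 1000 genes, which removed the shallow cells of day 30 (301 of 10691), and 21 in CD4-like cells (425 of 9375). Without either library of day 30 or the deleted library of day 7, 1 library was left in a group. The median log2 fold changes were then -1.87 to -1.50. The genotype and day terms come from the same libraries and are not independent of each other.

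All 6 enzymes of nucleotide supply and uracil removal fell, with log2 fold changes of -2.55 to -0.97. Tyms, which makes thymidylate, had 90.7, 66.7 and 116 CPM in wild type, sufficient and deleted cells of day 7, and 5.16 and 30.4 in sufficient and deleted cells of day 30 (-2.55 ± 0.41, edgeR adjusted p = 0.0187). Rrm2, with the values given above, changed by -2.52 ± 0.34 (edgeR adjusted p = 0.0143) and Dut by -1.71 ± 0.13 (edgeR adjusted p = 0.00875). In Tyms, Rrm2 and Dut the highest value of day 30 lay below the lowest of day 7. The summed level of the role at day 7 was 5.21 times that at day 30 in sufficient cells, or 7.27 times without the 1 cell noted above, and 3.77 times in deleted cells. All 6 chromatin genes fell too, from -2.39 for Uhrf1, which guides the upkeep of DNA methylation, to -0.90 for Slbp. Among the 43 genes E2f2 had the largest change, -2.82 ± 0.40 (edgeR adjusted p = 0.0151), with its day 30 values resting on few UMIs.

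Of 9 helicase genes, 8 fell. Mcm6 changed by -1.69 ± 0.15 and Mcm5 by -2.25 ± 0.29, and in each both values of day 30 lay below all of day 7. Gins1, a subunit of the same helicase, went the other way: 7.71, 7.97 and 15.7 at day 7 and 23.9 and 30.4 at day 30, a log2 fold change of 1.48 ± 0.27 (edgeR adjusted p = 0.0221) with no overlap. The total libraries of day 7 had 44.5 and 11.5, on either side of the day 30 values. The call was lost when cells needed 1000 genes (296 of all 10691 genes rose) and in CD4-like cells (400 of 9375). Gins2, its partner, fell by 2.45 ± 0.22 on the log2 scale. The labels say that libraries were read with 98 or 57 bases on the cDNA side but not which, so read length and library cannot be told apart in the values of a single gene such as Gins1.

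Some genes of the clamp and of strand binding did not pass. Pcna had a day difference of -0.40 ± 0.31 (edgeR adjusted p = 0.388) and Rpa2 of -0.41 ± 0.14 (edgeR adjusted p = 0.0919), and in both the deleted cells of day 30 lay above the wild type cells of day 7. Slbp fell by 0.90 ± 0.13 on the log2 scale (edgeR adjusted p = 0.0150) and Rfc2, of the clamp loader, by 0.76 ± 0.14. Cdt1 (-0.04 ± 0.23) and Pola2 (-0.07 ± 0.22) were the closest to no change. Cdt1 had 25.1, 21.9 and 52.8 at day 7 and 24.5 and 36.9 at day 30: in intact cells the day 30 value lay between the 2 values of day 7, and in deleted cells it was lower. Its fellow licensing gene Cdc6 fell by 2.33 ± 0.31 on the log2 scale (3 and 8 UMIs at day 30), and Gmnn by 1.73 ± 0.19.

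Whether the genotype difference itself differed between the days was tested with an interaction term, which left 1 residual degree of freedom. By edgeR none of the 43 genes passed, nor did any of the 11313 genes tested (0%), and the lowest adjusted p by edgeR among the 43 was 0.703. Without adjustment 4 of the 43 had an edgeR p under 0.05, 2 in each direction (4.83% and 1.74% of all genes had a positive and a negative term). DESeq2 called none of the 43 and 6 of all 11313 genes. Fitted differences ran from -1.38 ± 0.99 for Pole to 1.76 ± 0.57 for E2f2, and those of Tyms and Rrm2 were 1.72 ± 0.40 and 1.36 ± 0.24. A positive value means a larger ratio of deleted to intact cells at day 30 than at day 7. The deleted to sufficient ratio of Tyms was 1.74 at day 7 and 5.89 at day 30, where it rests on 8 and 65 UMIs. These values moved with 1 cell: the median fitted difference was -0.27, with 16 of the 43 positive, and 0.16, with 24 positive, without the 1 cell noted above. No gene passed in that fit either, and there Tyms had 2.69 ± 0.45, Rrm2 2.32 ± 0.26 and Pole -0.42 ± 1.18.

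The fourth comparison asked whether CD4-like cells that bind GP66:I-Ab differ at day 7 from CD4-like cells of the total libraries. By edgeR no replication gene passed in either direction, where 0.477% of 10262 genes tested were higher and 0% lower in GP66+ cells. Without adjustment 9 of them were higher and 2 lower at an edgeR p under 0.05 (6.87% and 6.07% of all genes). DESeq2 called none of the 43, where 128 of all 10262 genes were higher and 48 lower. Without a filter on low counts edgeR called 3 and 2 (446 and 324 of all 15343 genes). The median log2 fold change was 0.37 and that of all genes 0.0025. Leaving out any library left 1 in a group. The median was then 0.40 without the Thpok-sufficient library and 0.22 without the wild type library. It was 0.19 and 0.38 without total replicates 1 and 2. The comparison uses the CD4-like sums of the total libraries that the CD8-like cells were set against above. The summed level was 2401 and 2019 CPM in wild type and Thpok-sufficient GP66+ cells and 1749.9 and 2128 in the total libraries, so that the groups overlapped. For 11 genes both GP66+ values lay above both total values (15% of all genes) and for 3 genes below (28.1%).

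The fork and polymerase genes Clspn and Pola1 had the largest positive values. Clspn, the adaptor that carries the checkpoint signal at stalled forks, had 13.2 and 23.4 in total and 35.7 and 25.6 in GP66+ wild type and sufficient cells (0.85 ± 0.28, edgeR adjusted p = 0.328). Pola1, the catalytic subunit of polymerase alpha, had 11.2 and 13.2 against 22.1 and 19.2 (0.84 ± 0.18, edgeR adjusted p = 0.177). Ccne1, cyclin E1, had 28.2 and 32.9 in total and 16.2 and 17.8 in GP66+ cells (-0.77 ± 0.18, edgeR adjusted p = 0.215). Gins1 had 44.1 and 10.5 against 8.21 and 8.20 (-1.75 ± 0.63, edgeR adjusted p = 0.350). In Ccne1 and Gins1 both GP66+ values were the lower ones, and for Gins1 the 2 total libraries were further apart than total replicate 2 and the GP66+ cells.

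Per cell, the UMIs of these genes were unevenly spread. Each cell was thinned to 1500 UMIs, which left out 21.1% of Thpok-sufficient and 6.26% of Thpok-deleted cells at day 30 and at most 0.470% of T cells of a library of day 7, and a cell with at least 5 UMIs of the 43 genes was counted as rich. The cut is a point on a continuous range: between 1.40% and 9.72% of cells lay at 4 or 5 UMIs. Rich cells made up 7.67% and 12.6% of CD4-like and 16.2% and 30.3% of CD8-like cells in total replicates 1 and 2. In GP66+ cells of day 7 they made up 14.04% in wild type, 13.3% in Thpok-sufficient and 41.8% in Thpok-deleted cells (exact binomial 95% interval 39.1 to 44.5). At day 30 they were 0.701% of sufficient cells (4 of 571 cells, interval 0.191 to 1.78) and 6.39% of deleted cells (44 of 689, interval 4.68 to 8.48). Deleted cells had the larger share of each day, and within CD4-like cells of day 7 the share was 46.9% in deleted cells against 14.5% and 13.4% in wild type and sufficient cells. Myeloid-like cells of the total libraries, at a median depth of 4486 UMIs, had a share of 3.18%, above that of sufficient cells of day 30. What part of either share is background was not tested. Without thinning the shares were 51.3%, 42.8% and 73.7% at day 7 and 2.21% and 18.4% at day 30, in the same order.

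Within rich cells the number of these UMIs differed little among the libraries of day 7. The mean was 10.1 and 11.2 in CD4-like and 9.70 and 10.9 in CD8-like cells, and 11.2, 10.9 and 10.6 in wild type, sufficient and deleted GP66+ cells. Rich cells held 42.7% and 56.0% of the thinned UMIs of these genes in CD4-like cells of the total libraries, 58.0% and 75.8% in CD8-like cells, and 60.1%, 59.1% and 83.0% in wild type, sufficient and deleted GP66+ cells of day 7. Deleted cells of day 7 thus had about the same mean per rich cell as the intact libraries and a larger share of such cells. At day 30 deleted cells had a mean of 6.86 per rich cell, and rich cells held 24.5% of their UMIs of these genes, against 5.83% in sufficient cells, so that most of these UMIs lay outside rich cells at day 30.

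**Figure D4:**
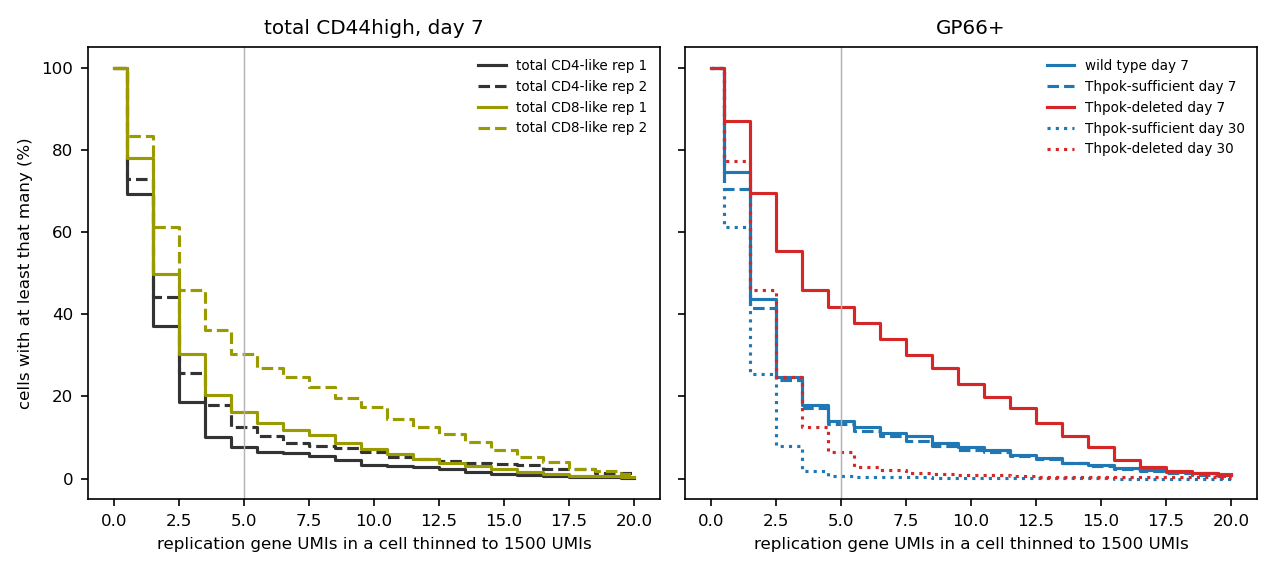
Percent of cells (vertical axis) with at least a given number of UMIs of the 43 genes (horizontal axis) after thinning each cell to 1500 UMIs, 1 line per library and class; the grey line marks 5 UMIs. At that line Thpok-deleted cells of day 7 stand at 41.8%, the 2 intact libraries of day 7 at 14.04% and 13.3%, and Thpok-sufficient cells of day 30 at 0.701%.

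Cells with and without UMIs of 25 mitosis genes, none of which is among the 43, were then set beside each other. In every profile of day 7 cells with a mitosis UMI carried more replication UMIs at the same depth: 3.76 against 1.37 per cell in wild type, 3.50 against 1.45 in sufficient and 6.93 against 2.98 in deleted GP66+ cells. At day 30 the gap was 1.24 against 0.925 in sufficient and 2.19 against 1.61 in deleted cells. The deleted cells were the higher ones on both sides of the split on both days. Of the rich cells 80.6% had a mitosis UMI in deleted cells of day 7, 87.1% in wild type, 80.9% in sufficient cells, and 43.2% in deleted cells of day 30 (19 of 44 cells). That share was 70.6% (12 of 17 cells) in deleted cells of day 30 thinned to 1000 UMIs and 60.7% (82 of 135 cells) without thinning, so its value moved with the depth it was counted at. Among all cells at 1500 UMIs, 59.6% of deleted, 52.3% of wild type and 48.4% of sufficient cells of day 7 had a mitosis UMI, and 30.6% of deleted and 21.02% of sufficient cells of day 30.

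**Figure D5:**
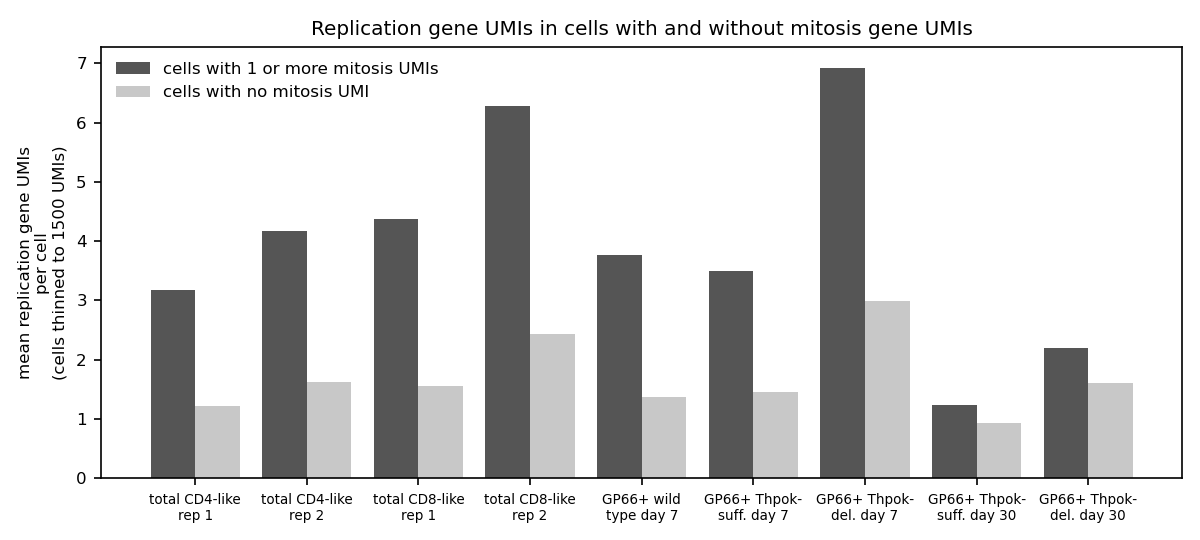
Mean UMIs of the 43 genes per cell thinned to 1500 UMIs (vertical axis, from 0) in cells with at least 1 UMI of 25 mitosis genes (dark) and with none (light), for the 9 profiles. The dark bar is the taller one in each profile, from 1.24 in Thpok-sufficient cells of day 30 to 6.93 in Thpok-deleted cells of day 7.

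The mitosis genes did not follow the replication genes in proportion. Their summed level in deleted cells was 1.65 times the sufficient and 1.03 times the wild type level at day 7, where the replication genes stood at 2.06 and 1.82 times, and 2.24 times the sufficient level at day 30. The summed replication level was 1.19 times the mitosis level in wild type, 1.67 times in sufficient and 2.09 times in deleted cells of day 7, and 3.21 and 2.88 times in sufficient and deleted cells of day 30. In the total libraries it was 1.31 and 1.21 times in CD4-like and CD8-like cells of replicate 1 and 2.10 and 2.11 times in replicate 2. The 2 classes of a library were close and the 2 replicates apart, and no test was made of these ratios.

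Other genes of the pathway, from lists that share no gene with the 43, were counted in the same fits, against shares of all genes tested of 18.8% higher and 19.5% lower in CD8-like cells, 0.602% and 0.287% higher and lower for genotype, and 9.93% and 11.9% higher and lower at day 30. Of the other replisome and origin genes 16 of 32 rose in CD8-like cells and 1 fell, and 11 of 33 fell at day 30 and none rose. Rnaseh2b, of the enzyme that removes RNA from RNA-DNA hybrids, Pole2, the second subunit of polymerase epsilon, and Dna2, a flap nuclease, led the former (log2 fold changes 1.0002 ± 0.10, 0.94 ± 0.20 and 0.76 ± 0.23). None of the 33 passed for genotype, with a median of 0.61 and 29 positive values. Of 21 other nucleotide synthesis genes 7 rose and 2 fell in CD8-like cells, none passed for genotype, and 12 fell at day 30. Of the replication stress and recombination genes 15 of 21 rose in CD8-like cells and 1 fell, none passed for genotype (median 0.86, 20 positive), and 9 fell at day 30, with the checkpoint kinase Chek1 at -3.16 ± 0.58. Of the G1 to S control genes 11 of 25 rose and 2 fell in CD8-like cells, led by the repressor E2F genes E2f8 (1.30 ± 0.19) and E2f7 (1.26 ± 0.28), and at day 30 8 of 26 fell and 4 rose. All 25 mitosis genes rose in CD8-like cells, none passed for genotype (median 0.68, 25 positive), and 24 fell at day 30 (median -2.84). No gene of these 5 lists passed in the comparison of GP66+ with total CD4-like cells (0.477% and 0% of all genes).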

How the data were processed

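The authors deposited UMI counts, one per gene and droplet, from 10x Genomics 3' v2 libraries. Per the labels' protocols they were sequenced on a NextSeq500, and per the submitters' processing notes read out with bcl2fastq 2.17 and counted by the authors with Cell Ranger on mm10, with no version given in the sources used here. Droplets were kept as cells with at least 10% of the 99th percentile of UMIs of the top 3000 barcodes, 500 genes and at most 10% mitochondrial UMIs. Cells were clustered in scanpy 1.11.5 (2000 variable genes, 20 components, resolution 0.8) and B-like and myeloid-like clusters removed. Scrublet marked 62 cells (0.385%), too few to have worked, so doublets stayed in.

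Sums of UMIs over the cells of each class were compared between libraries in edgeR 4.0.16 (TMM, filterByExpr, quasi-likelihood test, Benjamini-Hochberg over all genes tested at 0.05) in R 4.3.3, with DESeq2 1.42.0 as an alternative. All 43 genes passed the filter in each comparison, also those lifted over it by 1 group. The CD8-like and CD4-like sums were paired by library, since both come from the same cells' library. The scripts were tested on simulated counts with a coefficient of variation of 0.05 between libraries. The fitted value was 0.055 for lineage, 0.21 for GP66+ against total cells, 0.23 for genotype and day and 0.24 for the interaction. The simulation thus does not cover the noise of the comparisons after the first. Alternatives were another tool, no TMM, no filter on low counts, 1000 genes per cell, CD4-like cells only and each library left out. Leaving out erythroid cells, the cell rich in replication UMIs and the NK-like cluster were chosen after seeing the data. Genes given full values were the one with the highest mean level in each role, the 3 with the largest fold change in each comparison, and those against the median's direction at an unadjusted p under 0.05. The other genes named, and the promoter of Mcm5, were chosen after their values were seen. The 43 genes and the lists were chosen with earlier results of these data known. Promoter windows come from RefSeq on GRCm38.p6.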

Additional observations from a re-analysis of the deposited data

Results flagged for a closer look

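Cells of the 2 total libraries that no comparison used also carried UMIs of the 43 replication genes, above the level that 3 UMIs would give. B-like cells (44 cells) held 1631 CPM of them (exact Poisson 95% interval 1501 to 1769.8), and myeloid-like cells (157 cells) held 1015 (948 to 1086). T cells in which both Cd4 and a Cd8 gene were detected (476 cells, median depth 6647.5 UMIs) held 2768 (2715 to 2822), and T cells with no coreceptor UMI (1763 cells, median depth 3134 UMIs) held 1442 (1412 to 1471). Of these 2 groups of T cells the double positive cells were the deeper one, and their level stood above both classes of replicate 1 (1749.9 and 2559) and between those of replicate 2 (2128 and 3725). The part of doublets, depth and free RNA in these values was not tested.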

How the results depend on the processing

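The 40 replication genes called higher in CD8-like cells became 17 without the replicate block, and that comparison has no test with 1 total library left, so leaving out replicates was not run for it. No other replicate numbers pair libraries. Without TMM the median of all genes moved from -0.019 to -0.10 for lineage and from 0.026 to -0.15 for day. For GP66+ against total CD4-like cells, no filter on low counts gave 3 genes higher and 2 lower in place of 0 (446 and 324 of all 15343 genes). Leaving out any library left 1 in a group there, with medians from 0.19 to 0.40. For genotype, the single call became 18 with DESeq2, 2 without TMM and 31 with no filter on low counts. It became 2 without the cell rich in replication UMIs and 2 without erythroid cells. Without the Thpok-sufficient library of day 7 it became 0 (38 of all 10169 genes were higher), and without the wild type library 21 (297 of 10104). For day, the 34 lower calls became 15 with 1000 genes per cell and 21 in CD4-like cells only, and the higher call of Gins1 was lost in both. Without the Thpok-sufficient library of day 7 the lower calls became 32 (511 of all 10169 genes), and without the wild type library 38 (1520 of 10104). Gins1 stayed called in both of these fits. Leaving out any other GP66+ library left 1 in a group, and calls of those fits are not counted here. Calls over all genes moved with these settings too. Genes higher in CD8-like cells went from 1915 to 524 without the block. Genes higher in deleted cells went from 65 to 254 with DESeq2, 105 without TMM and 417 with no filter. Genes lower at day 30 went from 1284 to 301 with 1000 genes per cell and 425 in CD4-like cells. The cause was not tested.

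The summed log2 ratio of day 7 to day 30 was 1.55 in intact cells and 1.72 without the 3 highest genes, and 1.495 in deleted cells (1.57 without those 3, 1.63 as the mean of log2 levels). The ratio of shares of cells at 5 UMIs was 2.26 for CD8-like to CD4-like cells and 1.71 at 3 UMIs, 3.07 for deleted to intact cells at day 7 and 2.27 at 3 UMIs, 19.5 for day 7 to day 30 in intact cells (36.9 thinned to 1000 UMIs, 3.10 at 3 UMIs) and 6.55 in deleted cells (13.6 and 2.24). The ratios to day 30 rest on 4 and 44 cells at the cut.

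Single genes changed sign in a few settings. For day, Cdt1 was at 0.082 and Pola2 at 0.24 in CD4-like cells, and with a library left out they ran from -0.50 to 0.34 and from -0.38 to 0.18. For GP66+ against total cells, Ung was at 0.014 over all T cells, and Chaf1b at -0.0031 with 1000 genes per cell and -0.056 without TMM. With a library left out, that comparison ran from -0.014 to 0.30 for Mcm6, -0.023 to 0.36 for Mcm7, -0.070 to 0.76 for Cdc45, -0.40 to 0.23 for Pcna, -0.041 to 0.17 for Rfc2, -0.24 to 0.34 for Rfc4, -0.057 to 0.43 for Prim1, -0.28 to 0.093 for Pold1, -0.20 to 0.13 for Ung, -0.29 to 0.33 for Chaf1b and -0.49 to 1.58 for E2f1. For genotype it ran from -0.091 to 0.95 for Cdc45, -0.15 to 0.76 for Pola1, -0.091 to 1.40 for Pole, -0.091 to 0.77 for Dnmt1 and -0.18 to 0.93 for Hells, each negative value without the deleted library of day 7. Day 30 depth, at 2 UMIs for the lowest gene, limits what can be seen there.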
